A study of Danio rerio with 12 samples.

Results

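The genes described here are those of the cell cycle, of DNA replication and of mitosis, together with relatives that share their names. They were measured in cells sorted from zebrafish embryos by a GFP transgene that marks endothelium. They were chosen by gene symbol: MCM, ORC, CDC, cyclin A, B, D and E, CDK, E2F, Aurora, Polo, BUB, MAD2, CENP and kinesin (kif) genes, with pcna, ndc80, nsl1 and the genes whose symbols begin with rrm or top2, without the cdc42 genes and plk2b. That gave 99 of the 8793 genes with a named probe set, covered by 133 of 15502 probe sets, and for a gene with several, the brightest over the 12 arrays, by mean log2 signal, was used. The choice by name also takes in genes known for roles outside division, such as cargo kinesins and kinases that act in transcription or in neurons. The genes were therefore sorted into 14 classes, again by symbol, with name patterns picked for known roles and a last class for the rest.

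The arrays were one-colour Affymetrix zebrafish arrays hybridised with RNA of GFP-positive cells, sorted at 48 hours after fertilization from embryos with the flk1:GFP transgene, which marks endothelium. The 3 groups were control embryos and embryos given 4 ng of either of a pair of independent antisense morpholinos, MO-1 and MO-2, at the one-cell stage. Both oligonucleotides block processing of the precursor of miR-126, a microRNA of endothelial cells, and they act in the whole embryo rather than in the sorted cells alone. All embryos carried the transgene, and each group had 4 biological replicates, numbered 1 to 4. Control replicate 1 is labelled uninjected, the labels of control replicates 2 to 4 mention no injection, and no control oligonucleotide is named. The sources used here do not say how many embryos were pooled for a sort, or whether a replicate number stands for a shared clutch, sort or day.

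A dividing cell licenses its origins of replication in G1, when the origin recognition complex (ORC) and CDC6 load the MCM helicase onto DNA, and fires them in S phase with CDC45 and the kinase CDC7. E2F factors drive many of these genes at the entry into S phase, while cyclin A and B with CDK1, the Aurora and Polo kinases, the kinetochore and the mitotic kinesins carry the cell through mitosis. In the embryo, endothelial cells still divide while vessels sprout, and levels of these messages in a sorted population reflect how many of its cells are cycling as well as how much each cell makes. In bulk RNA, fewer cells of a type and less RNA per cell cannot be told apart.

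Array medians of log2 signal were 6.79 to 6.85, and arrays correlated over probe sets at 0.944 to 0.992. Of the 99 genes, 29 had a mean signal below the median of all probe sets, 6.83, and 6 of these lay under their lower quartile, 5.52: ccna1, cdk5, e2f5, e2f7, kif19 and kifap3b. The sorted cells carried endothelial messages, though only 12 of 32 listed markers were measured. Of these 12, 8 had a mean above the median of all probe sets and 5 above the upper quartile. Markers of other tissues were seen too: 20 of 24 muscle and 13 of 18 epidermal markers lay above the upper quartile. Log2 signal of the VEGF receptor gene kdrl was 7.46 to 8.51 and that of the receptor gene tie1 8.63 to 9.37 in the arrays numbered 1 to 3. The marker gene lmo2 ran from 5.35 to 6.63 in those arrays and overlapped the arrays numbered 4, at 4.87 to 5.96. For kdrl, tie1, erg and plvapb the 3 arrays numbered 4, 1 of each group, stood apart. In them kdrl was at 5.82 to 6.36 and tie1 at 7.35 to 7.58. Calls, medians and the genes with the largest differences are therefore also given without these 3 arrays.

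The first question was whether the cell cycle genes differ in the sorted cells, which also held messages of other tissues, after the miR-126 morpholinos. None of them passed the test with either morpholino. The limma test, with Benjamini-Hochberg adjustment over 15502 probe sets and a threshold of 0.05, called 0 of 99 genes and 0 of 15502 probe sets (0%) in each of 4 comparisons: control with MO-1, with MO-2 and with the mean of both, and the morpholinos with each other. At an unadjusted p under 0.05 the numbers were, in that order, 0, 0, 0 and 1 of the 99 genes, beside 1.11%, 2.23%, 1.89% and 0.561% of all probe sets. With the replicate number as a block they were 2, 4, 2 and 1, beside 2.87%, 6.11%, 5.48% and 2.28%, and again 0 were called.

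The estimates lay on both sides of 0. With MO-1, 51 genes had a higher mean than in control and 48 a lower one, and the median difference was 0.00 log2 (0.02 over all 8793 genes). With MO-2, 42 were higher and 57 lower, with a median of -0.03 (0.01 over all genes). Single differences ran from -0.52 to 0.35 with MO-1 and from -0.45 to 0.39 with MO-2. The 95% intervals are those of the fit without the replicate number, so they carry the spread between numbers and bound only what that fit could have missed. That of the difference with both morpholinos reached a median of 0.34 log2 to each side. It lay wholly within a 2-fold change for 96 of 99 genes and within a 1.5-fold change for 86 (95.2% of all genes lay within 2-fold). The exceptions at 2-fold were cdk5r2a, kif5aa and rrm2b. Without the arrays numbered 4 the medians were -0.00 with MO-1, 0.01 with MO-2 and 0.02 with both, and 0 of the 99 genes were called.

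**Figure D1:**
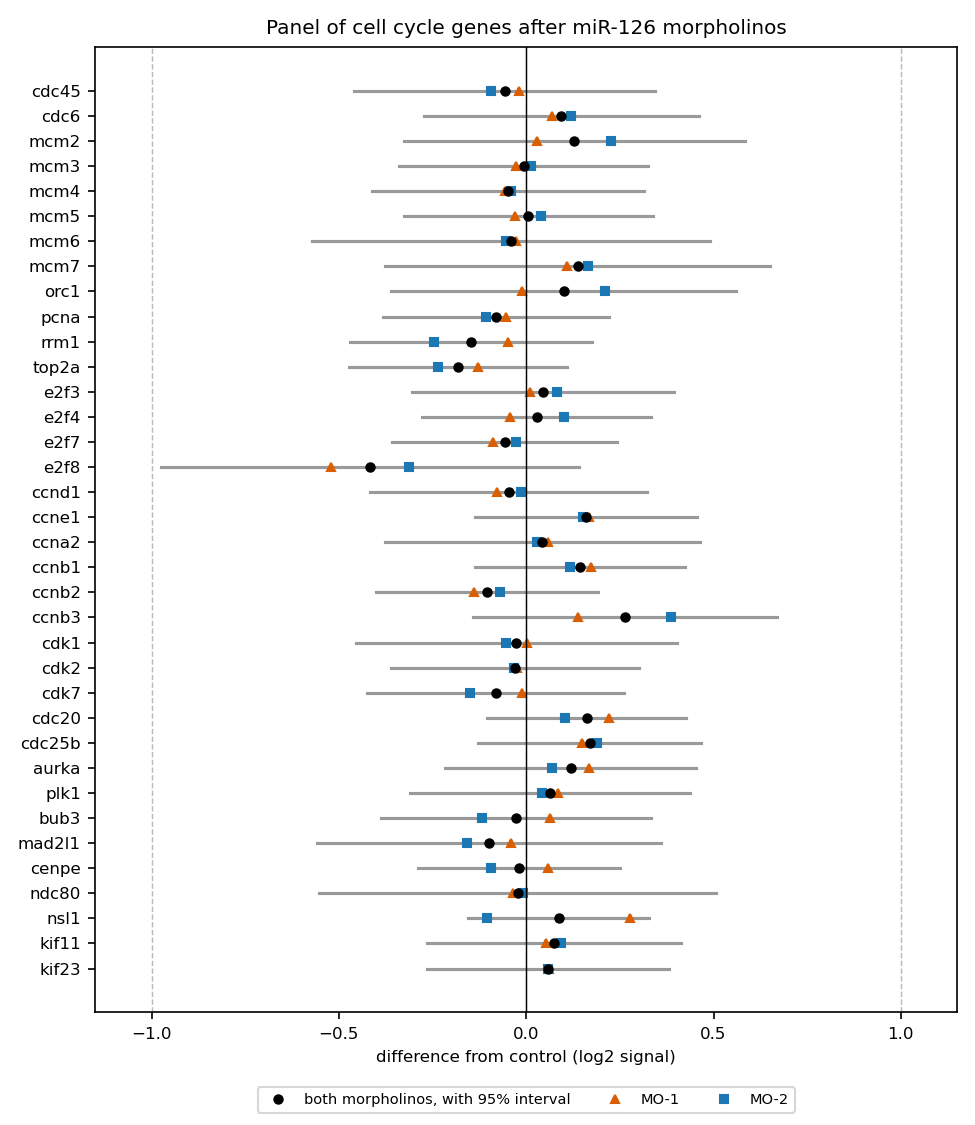
Difference of mean log2 signal from control for 36 cell cycle genes chosen for their textbook roles, with both morpholinos together (black, with the 95% interval of the limma fit), MO-1 (triangles) and MO-2 (squares). All 36 intervals cover 0 and lie within 1 log2 unit, the 2-fold change drawn as dashed lines.

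Among the genes of origin licensing and firing, 10 of 17 had a higher and 7 a lower mean with both morpholinos, and the median was 0.02. The intervals of the MCM helicase genes mcm2, mcm5 and mcm7 covered 0. Log2 signal of mcm5 was 9.49, 9.56, 9.87 and 9.32 in control replicates 1 to 4, 9.74, 9.59, 9.58 and 9.21 after MO-1 and 9.79, 9.58, 9.83 and 9.19 after MO-2. The 3 groups overlapped throughout, with the lowest array of each in number 4, and the difference with both morpholinos was 0.01 (95% interval -0.33 to 0.34), and 0.05 without the arrays numbered 4. For mcm7 it was 0.14 (-0.38 to 0.65), for mcm2 0.13 (-0.33 to 0.58) and for orc1, the large subunit of ORC, 0.10 (-0.36 to 0.56). The class had 13 of 17 means higher and a median of 0.05 without the arrays numbered 4. Taken singly, the morpholinos gave class medians of -0.02 with MO-1 and 0.11 with MO-2. Without the arrays numbered 4 these were -0.00 and 0.14, beside 0.02 and 0.03 over all genes. With MO-2, 14 of 17 means were then higher than in control and 15 higher than with MO-1, and 0 were called.

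The 6 genes of the replication fork, nucleotide supply and DNA untangling all had lower means with each morpholino, with medians of -0.16 after MO-1 and -0.24 after MO-2, and 0 of 6 were called. All 6 means were lower without the arrays numbered 4 too, with medians of -0.11 and -0.17. The sliding clamp gene pcna was at 10.85, 10.996, 11.04 and 10.67 in control, 11.19, 10.61, 10.91 and 10.64 after MO-1 and 10.88, 10.98, 10.72 and 10.55 after MO-2. Its groups overlapped throughout, with differences of -0.05 and -0.11. For rrm1, the large subunit of ribonucleotide reductase, which makes the building blocks of DNA, the differences were -0.05 after MO-1 and -0.25 after MO-2. Those of rrm2l, named as a relative of its small subunit, were -0.19 and -0.18.

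Of this class, top2b had the smallest p of all 99 genes with MO-2. It encodes topoisomerase II beta, the form of the enzyme that also works in cells that have stopped dividing. Its signal was 9.55, 9.22, 9.53 and 9.08 in control, 9.43, 9.20, 9.13 and 8.72 after MO-1 and 9.21, 8.89, 9.12 and 8.55 after MO-2. Within each replicate number the control array was the highest and the MO-2 array the lowest, while the groups as wholes overlapped. The difference was -0.40 with MO-2 (SE 0.19, 95% interval -0.81 to 0.01) and -0.22 with MO-1, and neither passed (limma, adjusted p = 1.00). With MO-2 it was -0.36 without the arrays numbered 4. The other 4 probe sets of top2b also had lower means, with differences of -0.15 to -0.24 for MO-1 and of -0.23 to -0.30 for MO-2. The related top2a, the topoisomerase of dividing cells, was at -0.13 and -0.24, and 3 of its other 4 probe sets were higher with MO-1.

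The E2F factors had 3 of 6 means higher and 3 lower with both morpholinos. For e2f8, a repressor of the family, log2 signal was 8.51, 8.44, 7.93 and 8.12 in control, 7.99, 8.40, 7.65 and 6.87 after MO-1 and 7.73, 8.35, 8.26 and 7.41 after MO-2. All 4 MO-1 arrays lay below the control array of the same number, but MO-1 replicate 2 stood above 2 control arrays. Its difference with both morpholinos, -0.42 (SE 0.26, 95% interval -0.97 to 0.14; adjusted p = 1.00 by limma), was the largest of the 99 in size. Without the arrays numbered 4 it was -0.23. The activator e2f3 was at 0.05 and the repressor e2f4 at 0.03.

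Cyclins and their kinases lay on both sides of 0. Cyclin D1, the cyclin that couples growth signals to G1, had ccnd1 signals of 10.92, 10.82, 11.22 and 10.56 in control, 11.15, 10.73, 10.94 and 10.38 after MO-1 and 11.08, 10.87, 11.04 and 10.48 after MO-2. The groups covered one another, with a difference of -0.05 with both morpholinos (95% interval -0.42 to 0.32). For cdk1, the kinase of mitotic entry, it was -0.03 (-0.46 to 0.40), and for ccna2, its S phase and G2 partner, 0.04 (-0.38 to 0.46). Cyclin B1, the main mitotic cyclin, was at 0.14 (-0.14 to 0.42) for ccnb1, where MO-1 replicate 3 was the highest array.

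Cyclin B3, a cyclin of meiosis and mitosis, was the 1 gene of the 99 whose MO-2 arrays all lay above the control arrays, as 0.955% of all probe sets did. Log2 signal of ccnb3 was 8.03, 7.86, 8.09 and 8.06 in control, 8.30, 7.53, 8.72 and 8.06 after MO-1 and 8.72, 8.14, 8.48 and 8.26 after MO-2. The lowest MO-2 array stood only just above the highest control array, and the MO-1 arrays spread over and beyond both groups. The difference was 0.39 with MO-2 (SE 0.22, 95% interval -0.08 to 0.85) and 0.14 with MO-1, and neither passed (limma, adjusted p = 1.00). With MO-2 it was 0.45 without the arrays numbered 4. Its other 3 probe sets also had higher means, with differences of 0.14 to 0.20 for MO-2 and of 0.10 to 0.24 for MO-1.

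Genes of the mitotic apparatus showed small differences. Of 10 mitotic kinesins, 7 had a higher and 3 a lower mean with both morpholinos, with a median of 0.01 (0.04 without the arrays numbered 4). The spindle motor gene kif11 was at 0.07 (95% interval -0.26 to 0.41), the central spindle motor gene kif23 at 0.06 (-0.26 to 0.38), aurka, the Aurora kinase of the spindle poles, at 0.12 (-0.22 to 0.45) and plk1, the Polo kinase of mitosis, at 0.06 (-0.31 to 0.44). Of the 5 spindle checkpoint genes, 4 had lower means, with a median of -0.06 (-0.02 without the arrays numbered 4). The 2 genes with the largest differences were bub1bb at 0.18 and mad2l1 at -0.10.

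At the kinetochore, which ties chromosomes to spindle fibres, nsl1 had MO-1 arrays that lay above those of both other groups. It encodes a subunit of the MIS12 complex of the kinetochore. Signals were 6.60, 6.65, 6.63 and 6.43 in control, 6.71, 6.89, 6.97 and 6.86 after MO-1 and 6.68, 6.37, 6.59 and 6.26 after MO-2. The MO-1 arrays lay above all control arrays and above all MO-2 arrays, while MO-2 and control overlapped. The lowest MO-1 array, at 6.71, stood only just above the highest control array, 6.65, and the highest MO-2 array, 6.68. It was the 1 gene of the 99 with either separation, and 0.645% of all probe sets had their MO-1 arrays above control and 0.303% their MO-2 arrays below MO-1. The difference was 0.28 with MO-1 (SE 0.13, 95% interval -0.00 to 0.56), -0.10 with MO-2 and -0.38 between MO-2 and MO-1 (SE 0.13, 95% interval -0.66 to -0.10). Without the arrays numbered 4 these were 0.23 with MO-1 and -0.31 between morpholinos. None passed after adjustment (limma, adjusted p = 1.00), and its mean over the 12 arrays was below that of the median probe set.

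Of the genes matched by name only, cdk11b, a kinase of transcription and splicing, had the second smallest p with MO-1. Its values were 7.70, 7.79, 8.22 and 7.58 in control, 7.98, 8.31, 8.57 and 7.83 after MO-1 and 7.94, 7.90, 8.10 and 7.94 after MO-2. Every MO-1 array was above the control array of its number, though the groups overlapped, and the difference was 0.35 (SE 0.18, adjusted p = 1.00 by limma). Without the arrays numbered 4 it was 0.38. Its second probe set went the other way, at -0.06. Wide intervals were found for cdk5r2a, an activator of the neuronal kinase CDK5, and for kif5aa, a kinesin of axonal transport. They were at -0.40 (95% interval -1.005 to 0.20) and -0.37 (-1.25 to 0.50) with both morpholinos, and at -0.80 each without the arrays numbered 4. The interval of rrm2b was wide too, at -0.35 (-1.13 to 0.43), and -0.45 without those arrays.

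**Figure D2:**
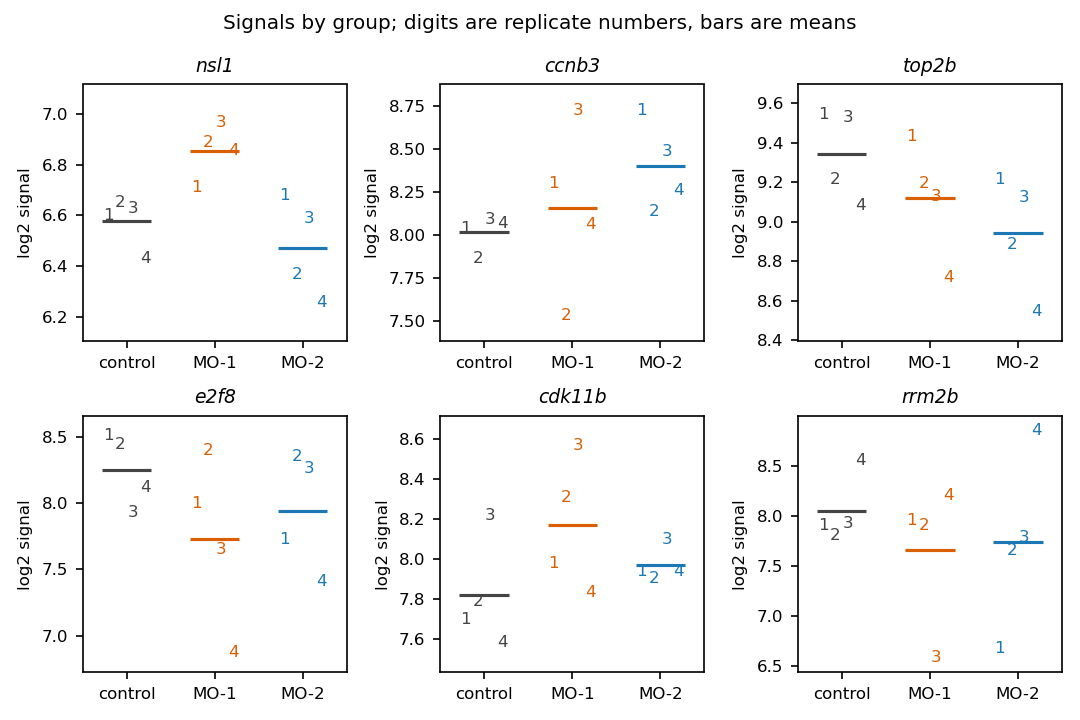
Log2 signal of 6 genes in the control, MO-1 and MO-2 arrays, each digit being an array's replicate number and each bar a group mean of 4 arrays. For nsl1 the 4 MO-1 arrays (6.71 to 6.97) lie above all others, for ccnb3 the 4 MO-2 arrays (8.14 to 8.72) lie above the control arrays, and in the other 4 genes the groups overlap.

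Arrays with the same replicate number can be compared as pairs. With MO-1, 9 genes lay on the same side of control in all 4 pairs (10.1% of all probe sets did): cdc20, cdc25b, cdk11b and nsl1 higher (6.26% of all probe sets), and cdc34b, cdk5rap2, e2f8, plk3 and top2b lower (3.86%). With MO-2, 12 did (13.9%): ccnb3, cdc34a, kif1b, kifc3, mcm7 and orc6 higher (7.06%), and cdc23, cdc37l1, cdk5rap2, kif20bb, rrm1 and top2b lower (6.86%). Between MO-2 and MO-1, 6 did (6.93%). These shares of the 99 genes, 9.09%, 12.1% and 6.06%, lay near those of all probe sets. Both morpholinos were set against the same control arrays, so their 2 sets of pairs are not independent. The gene cdk5rap2, for a centrosome protein, was at -0.15 with MO-1 and -0.18 with MO-2.

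The other genes of the pathway were taken from 4 lists of replication machinery, mitosis and chromosome structure, cycle regulators and checkpoints, and CDK inhibitors and p53 targets. Of their 33, 49, 25 and 18 measured genes, 0 were called in any of the 4 comparisons of groups. The medians with both morpholinos were -0.04, -0.03, -0.01 and -0.06 (-0.02, -0.02, -0.01 and -0.09 without the arrays numbered 4). The p53 targets bear on morpholino injection, which is known to induce p53 in zebrafish. With both morpholinos 7 of the 18 genes of that list had a higher mean and 11 a lower one, from -0.25 to 0.29. The list also holds genes that are not p53 targets, so this is no count of p53 targets. Among the 7 higher ones was mdm2, the feedback inhibitor of p53, at 0.21 after MO-1 and 0.29 after MO-2. The largest difference in the 4 lists with MO-2 was that of tipin, a fork protection gene, at 0.70 beside 0.23 after MO-1, and it was not called (limma, adjusted p = 1.00). Markers of other cell types also differed between groups without being called. Of 24 muscle markers 24 had higher means with MO-2 (median 0.63) and 13 with MO-1 (0.03). Of 12 endothelial markers 10 had higher means with MO-1 (median 0.14) and 11 with MO-2 (0.22). Of 11 neuronal markers 11 had lower means with each (medians -0.24 and -0.27), and of 11 erythroid markers 10 with MO-1 (-0.56) and 8 with MO-2 (-0.21). Without the arrays numbered 4 the medians with MO-1 and MO-2 were 0.01 and 0.58 for muscle and 0.26 and 0.42 for endothelial markers. They were then -0.59 and -0.55 for neuronal and -0.36 and -0.02 for erythroid markers, where 5 were higher and 6 lower with MO-2. The part of these markers in the differences of the cell cycle genes was not tested.

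The replicate number separated the arrays more than the treatment did for most of these genes. For the median gene of the 99, the number accounted for 51.8% of the sum of squares over the 12 arrays and the group for 8.13%, beside 45.2% and 8.65% for all genes. The number's share was the larger in 92 of 99 genes, or 92.9%, and in 86.8% of all genes. For the 17 genes of origin licensing and firing the shares were 65.6% and 3.66%, and the number's was the larger in 17 of 17. There were 4 numbers and 3 groups, so the number had more levels to account for the spread.

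Each number was then compared with the mean of the other 3, in a fit with group and number as terms, so that every comparison set 3 arrays, 1 of each group, against 9. With number 4, limma called 12 of 99 genes lower and 0 higher (4.1% of all probe sets were called lower, 6.05% higher and 10.2% in either direction). With number 3 it called 3 higher and 0 lower (1.02% of all probe sets higher, 2.39% lower and 3.41% in either direction). With numbers 1 and 2 it called 0 genes, beside 4.58% and 1.23% of all probe sets, and 11 and 13 of 99 had an unadjusted p under 0.05, beside 18.4% and 12.6% of all probe sets. The F-test over the 4 numbers called 9 genes, or 9.09%, a share no higher than the 12.1% of all probe sets. Without the arrays numbered 4 it called 0 of the 99 and 3.33% of all probe sets, and when single arrays were left out it called 2 to 9. For number 4 the mean of the others includes number 3, where the 99 genes tended to be high. No comparison of number 4 with numbers 1 and 2 alone is given here.

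Origin licensing and firing led the genes that were lower in number 4. All 17 of them had a lower mean there, with a median of -0.43 log2, beside -0.16 for the 99 genes and -0.03 for all genes, and 6 of 17 fell past the threshold: mcm7, orc1, orc2, orc5, mcm5 and mcm4. The other 11 ranged from -0.16 to -0.50. Signals of mcm7, a subunit of the replicative helicase, were 10.57 in control, 10.77 after MO-1 and 10.83 after MO-2 in number 4, against 11.42 to 11.76 in the other 9 arrays. There was no overlap, and the difference was -0.85 (SE 0.11, 95% interval -1.09 to -0.61; adjusted p = 0.000698 by limma), which makes the signal 1.80-fold lower. The calls depend on single arrays: without MO-2 replicate 4 only mcm7 was called among the 99 genes, without MO-1 replicate 4 only mcm7 and orc1, and without MO-2 replicate 2, 6 genes.

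The ORC genes followed. For orc1 the arrays numbered 4 were at 7.22 in control, 7.01 after MO-1 and 7.08 after MO-2, below the other 9, which ran from 7.48 to 8.12. It was lower by a log2 difference of -0.69 (SE 0.12; adjusted p = 0.00442 by limma). For orc2 they were at 7.09, 7.06 and 6.77, against 7.24 to 7.97, with a difference of -0.58 (SE 0.15; adjusted p = 0.0256), and for orc5 at 6.11, 5.74 and 5.70, against 6.19 to 6.45, with -0.47 (SE 0.12; adjusted p = 0.0317). In both genes the control array was the highest of those numbered 4 and came close to the lowest of the other 9. For mcm5 and mcm4 the differences were -0.43 (adjusted p = 0.0423) and -0.40 (adjusted p = 0.0496), the latter at the edge of the threshold.

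Outside the licensing class, 6 genes fell in number 4, as 4.1% of all probe sets did. They were ccna2 at -0.55 (adjusted p = 0.0122 by limma), ccnd1 at -0.50 (0.0195), top2b at -0.47 (0.0225), ndc80 at -0.65 (0.0230), cdc37 at -0.61 (0.0441) and e2f8 at -0.67 (0.0456). Signals of ccna2 were 7.28, 7.17 and 7.31 in the control, MO-1 and MO-2 arrays numbered 4, against 7.55 to 8.17 in the others. Those of ndc80, which binds spindle microtubules at the kinetochore, were 8.92, 8.43 and 8.73, against 8.997 to 9.88. Neither gene overlapped, and ndc80 of control replicate 4 came close to the others. The second probe set of ccnd1 differed by -0.91 (adjusted p = 0.00481), whereas the other 4 of top2b, at -0.22 to -0.39, did not pass (adjusted p = 0.0815 to 0.498). Of all 34 other probe sets of the 99 genes, 27 had the sign of the brightest one in number 4. Only 2 were called, those of ccnd1 and kif20a, beside 10.2% of all probe sets in either direction. The chaperone gene cdc37, an HSP90 partner for kinases, is matched by name and is not a gene of division alone.

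**Figure D3:**
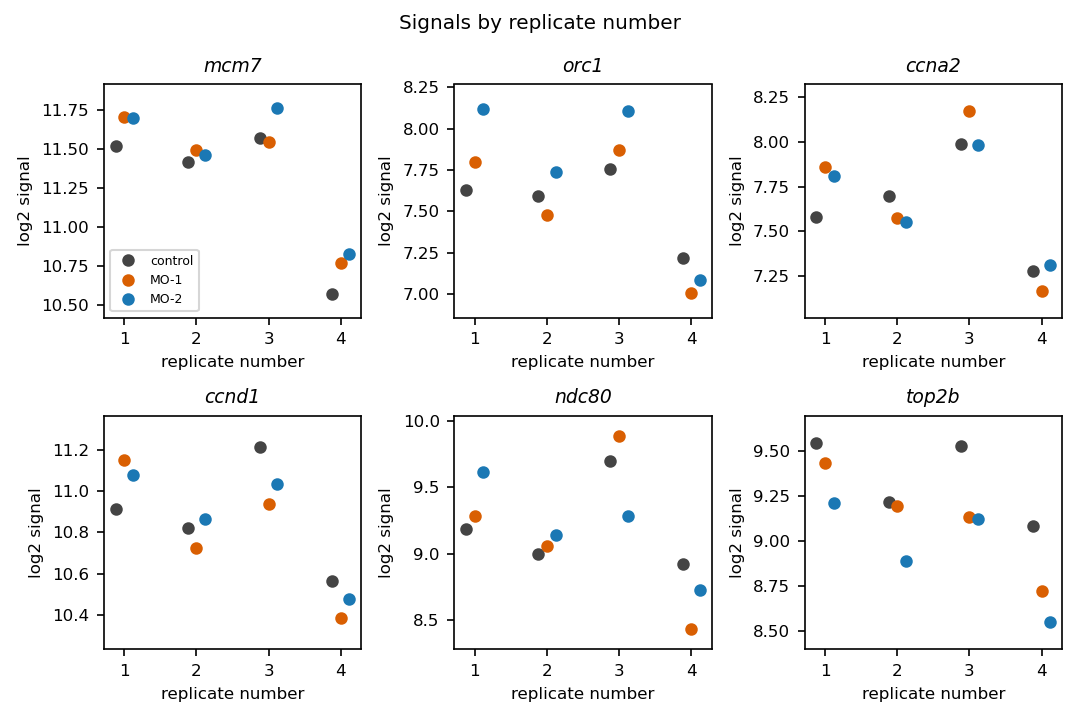
Log2 signal of 6 genes by replicate number, with 1 array of each group per number (grey control, orange MO-1, blue MO-2). The 3 arrays numbered 4 are the lowest for mcm7, orc1, ccna2, ccnd1 and ndc80, while for top2b the control array of number 4 lies within the range of the other arrays.

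The 3 arrays numbered 4 lay below the other 9 for 13 genes, among them 7 of the 17 licensing genes (3.76% of all probe sets showed this). They lay above them for 1 gene (3.94%), rrm2b, the subunit of ribonucleotide reductase that p53 induces in mammals. Signals of rrm2b were 8.56, 8.20 and 8.85 in the control, MO-1 and MO-2 arrays numbered 4 and 6.58 to 7.96 in the others, where MO-1 replicate 3 and MO-2 replicate 1 were low. The difference was 0.96 (SE 0.29) and did not pass (adjusted p = 0.0551 by limma).

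The classes of mitosis differed among themselves in number 4. The 5 spindle checkpoint genes all had a lower mean, with a median of -0.26 and 0 called, and so did the 6 genes of the centromere and kinetochore, with a median of -0.17 and 1 called, ndc80. The 3 cell cycle kinases of the CDK family had a median of -0.23 with 0 called. The 10 mitotic kinesins had a median of -0.03 with 4 higher, 6 lower and 0 called, and the 4 Aurora and Polo kinases a median of 0.03 with 0 called. The signal of kif11 was 9.35, 9.12 and 9.28 in the arrays numbered 4, within the 8.92 to 9.65 of the others, and its difference was -0.01 (95% interval -0.28 to 0.25). The kinesin gene kif20a was at 0.06, while its second, dimmer probe set rose by 0.63 (adjusted p = 0.0176 by limma), so its 2 probe sets disagree. For plk1 it was 0.10 (-0.21 to 0.41) and for ccnb1 -0.12 (-0.41 to 0.18). Among the kinases aurka was at -0.41 (-0.71 to -0.12), which did not pass (adjusted p = 0.0757 by limma). Whether licensing and mitotic genes differ in their response to the number was not tested.

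The other pathway genes were compared in the same way. Of all probe sets, 4.1% fell and 6.05% rose in number 4, and the median of all genes was -0.03. Of 33 genes of the replication machinery, 13 fell in number 4 and 0 rose, with a median of -0.42 and 29 of 33 lower. They included gins3, a subunit of the GINS complex of the helicase, at -0.90 (adjusted p = 0.00156 by limma), rpa2, which coats single-stranded DNA, at -0.78 (0.00531), fen1, the flap nuclease of the lagging strand, at -0.68 (0.00738), and cdt1, the licensing factor that loads MCM with CDC6, at -0.64 (0.0354). Of 49 genes of mitosis, chromosome structure and cytokinesis, 1 fell and 1 rose, with a median of -0.13: the condensin gene smc2 at -0.51 and the cytokinesis kinase gene cita at 0.55. Of 25 regulators 2 fell, fbxo5 at -0.63 and rbbp7 at -0.47, and 1 rose, mybl1 at 0.47. Of 18 CDK inhibitors and p53 targets 1 rose, the stress gene gadd45bb at 0.55.

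**Figure D4:**
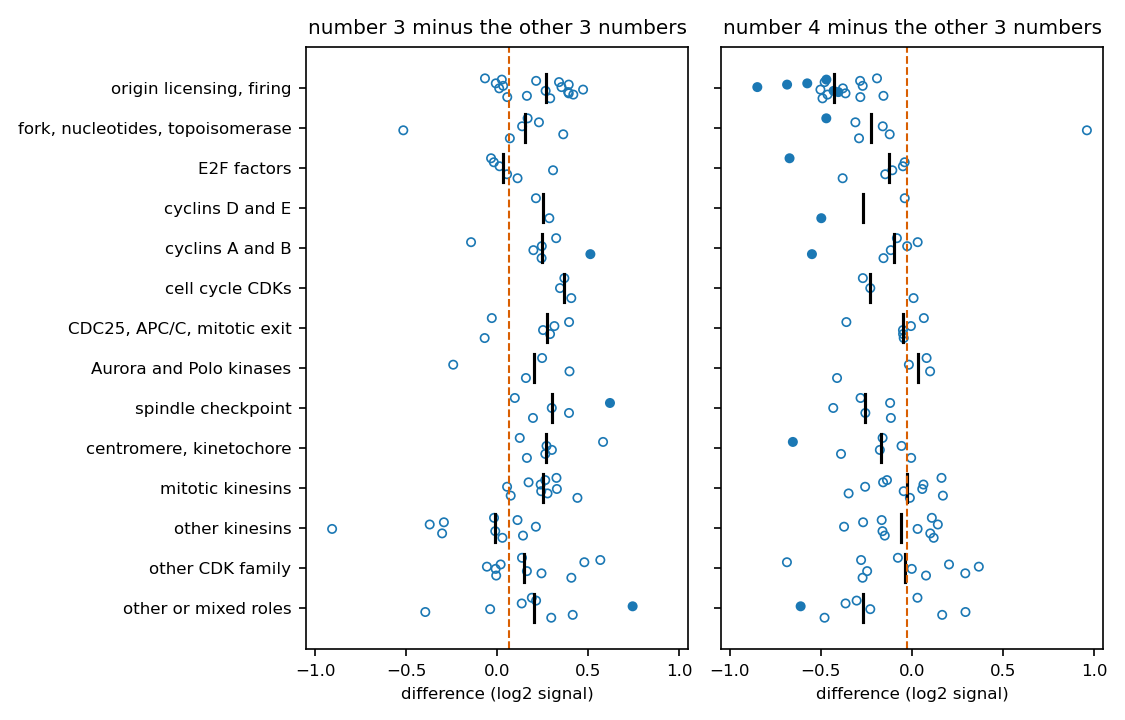
Difference of log2 signal between number 3 (left) or number 4 (right) and the mean of the other 3 numbers, for the 99 genes by role, with filled points for genes past the threshold, black bars for class medians and a dashed line for the median of all genes. In number 4 all 17 origin licensing and firing genes lie below 0 with a median of -0.43, while the medians of the spindle checkpoint genes and the mitotic kinesins are -0.26 and -0.03. In number 3 most classes lie to the right of 0.

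In number 3 the genes tended to be high. Of 99, 79 had a higher mean there and 20 a lower one, beside 5328 and 3465 of all 8793 genes. The median was 0.21, beside 0.06 for all genes. The 3 that passed were cdc37 at 0.74, mad2l1, the checkpoint gene that holds anaphase until chromosomes attach, at 0.62, and ccna2 at 0.51. Signals of mad2l1 were 10.04, 10.11 and 9.75 in the control, MO-1 and MO-2 arrays numbered 3, above the other 9 arrays at 8.83 to 9.62. For ccna2 they were 7.99, 8.17 and 7.98, against 7.17 to 7.86, with no overlap. The arrays numbered 3 lay above the other 9 for 8 genes, the 3 above with cdc20, cdk7, kif11, mcm3 and mcm4 (2.75% of all probe sets), and below them for 0 (1.66%).

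Several classes had similar medians in number 3: 10 of 10 mitotic kinesins had a higher mean, with a median of 0.25, as did 15 of 17 licensing genes, with a median of 0.27, and 5 of 5 spindle checkpoint genes, with a median of 0.30. Lower medians were those of the E2F factors at 0.03, of the replication fork class at 0.15 and of kinesins outside mitosis at -0.01, among them kif5aa at -0.91, which did not pass (adjusted p = 0.166 by limma). In the lists outside the 99, prim1 and tipin rose among 33 replication genes, and birc5a, incenp and zwilch among 49 mitotic genes, by 0.59 to 0.68. Of all probe sets, 1.02% rose and 2.39% fell in number 3. The CDK inhibitor gene cdkn1bb fell by 0.55 and the growth arrest genes gadd45ab and gadd45bb by 0.76 and 0.70. The arrays numbered 4 are part of the mean of the others, and leaving out single arrays gave 0 to 3 calls, 0 without control replicate 1 or 2 or MO-1 replicate 1 or 3. Against numbers 1 and 2 alone, number 3 had a median of 0.14 (0.07 over all genes), with 74 of 99 genes higher, and limma called 0 of 99 and 1.58% of all probe sets. The difference of ccna2 was then 0.37 (adjusted p = 0.166 by limma), that of cdc37 0.61 (0.0682) and that of mad2l1 0.65 (0.0848).

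Array by array, the mean of the 99 genes followed the number in every group. After each gene was centred over the 12 arrays, it was -0.03, 0.00, 0.15 and -0.10 in control replicates 1 to 4, 0.05, -0.08, 0.15 and -0.09 after MO-1 and 0.08, -0.02, 0.09 and -0.21 after MO-2. The highest value of each group was in number 3 and the lowest in number 4. The group means were 0.01 ± 0.10 for control, 0.01 ± 0.12 for MO-1 and -0.01 ± 0.14 for MO-2 (SD over 4 arrays), so they differed by less than the replicates of a group. For 54 of the 99 genes the lowest of the 12 arrays was numbered 4 (31.2% of all genes), and for 61 the highest was numbered 3 (38.2% of all genes).

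Markers of cell types moved with the numbers too. Beside them, 4.1% of all probe sets fell and 6.05% rose in number 4, and 2.39% fell in number 3. The mean of 12 centred endothelial markers was -0.97 to -0.62 in the arrays numbered 4 and -0.13 to 0.50 in the others, and 10 of 12 fell in number 4, with a median of -1.07. The mean of 24 skeletal muscle markers was 0.58 to 1.19 in number 4, where 18 of 24 rose, and -1.67 to -0.08 in number 3, where 21 of 24 fell. The mean of 18 epidermal markers was 0.41 to 0.50 in number 4 and -0.62 to 0.38 in the others, and 6 of 18 rose in number 4. Of 22 markers of neural progenitors 2 rose and 4 fell there, of 11 of leukocytes 1 rose and 3 fell, of 11 of erythroid cells 1 fell, and of 11 of neurons 0 were called. Muscle means were 0.51 to 0.79 in the arrays numbered 2. As a sign of RNA quality, the 3′ minus 5′ log2 signal of the acta1 control probe sets was 3.49 to 3.88 in number 4 and 2.497 to 3.46 in the others. That of GAPDH was 1.76 to 2.09 in number 4 and 1.68 to 1.82 in number 3, which overlapped. In numbers 1 and 2 it was lower, at 0.78 to 1.57. The part of the cell makeup and of RNA quality in the differences between numbers was not tested.

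**Figure D5:**
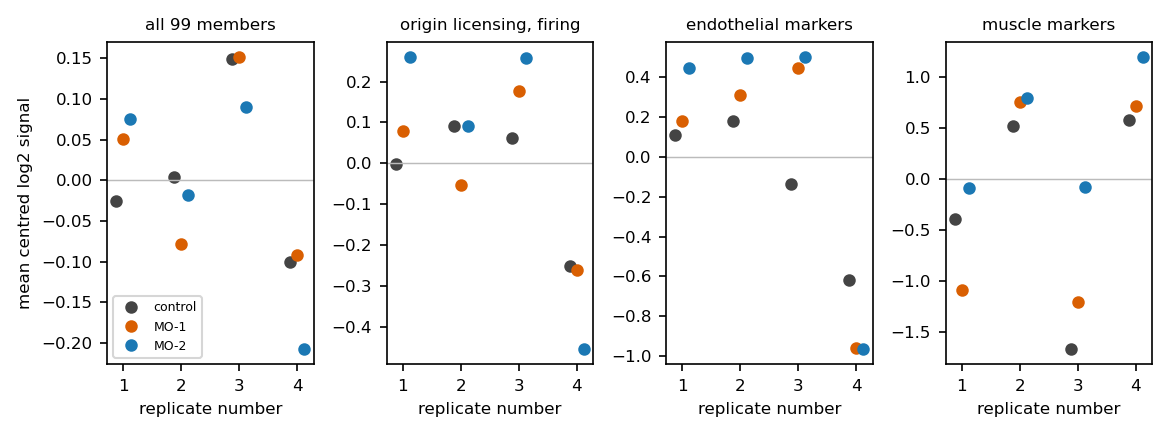
Mean centred log2 signal of the 99 cell cycle genes, the 17 origin licensing and firing genes, 12 endothelial markers and 24 muscle markers in each of the 12 arrays, by replicate number, with 1 point per array (grey control, orange MO-1, blue MO-2). The licensing genes and the endothelial markers are lowest in the arrays numbered 4, at -0.45 to -0.25 and -0.97 to -0.62, and the muscle markers run from -1.67 to 1.19.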

How the data were processed

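The authors deposited log2 signals per probe set from RMA, per the submitters' processing notes (the sources used here give no version, and the base of the logarithm was read from the values). Of 15617 probe sets, 115 controls were not tested. Probe sets were named through the platform annotation (10795 with 1 symbol, 135 with several, 4572 with none), and 98 of the 99 genes matched RefSeq by Entrez number. Levels of different probe sets were ranked by mean signal, to choose the brightest of a gene and to place genes against the median and quartiles. They were not compared otherwise.

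Differences were tested two-sided with limma 3.58.1 in R 4.3.3, fitted to group means of all 12 arrays (13.14 degrees of freedom). Numbers were compared in a fit with group and number as terms. The tests were tried on simulated data with noise independent between arrays, without the correlation of same-numbered arrays given next. That trial is no measure of how the tests perform on these data. Same-numbered arrays correlated, after centring on group means, at 0.223 to 0.626 in 12 pairs, and each of 12 arrays correlated best with 1 of its own number. On this evidence from the data alone, the numbers were taken as pairing the arrays in the same-numbered pairs and in the replicate block. The SEs, intervals and adjusted p of single genes between groups are those of the limma fit without the number. They therefore carry the spread between numbers.

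The genes, classes and lists were chosen with earlier results of these data known. Genes named were a panel of 46 textbook genes (36 measured), the 5 smallest p of each comparison of groups where none passed, the 2 largest changes of each class, the 10 smallest p of the F-test, and the 5 largest changes among passing genes of each number. Other genes were chosen after their values were seen. Alternatives were array centring, quantile normalization, a filter at the lower quartile, other variance settings, the replicate block and leaving out arrays. Probe-level files, sequences and promoter motifs were not analysed here.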

Additional observations from a re-analysis of the deposited data

Results flagged for a closer look

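In 8 of 183 groups of 4 arrays looked at (4.37%), 1 array lay farther from the other 3 than Dixon's critical value at 95% allows, and chance gives about 1 in 20. The measure is the gap to the nearest array as a share of the group's range. In control replicate 4, mcm7 was low at 10.57 (the others at 11.42 to 11.57) and bub3, a spindle checkpoint gene, was low at 8.68 (9.06 to 9.13), while rrm2b was high at 8.56 (7.804 to 7.92). In MO-2 replicate 4, aurka was low at 7.74 (8.31 to 8.41). In MO-1 replicate 3, ccnb1 was high at 8.92 (8.31 to 8.40) and bub1bb was high at 9.51 (8.99 to 9.04). In control replicate 3, cdc37 was high at 11.08 (10.17 to 10.25). In MO-1 replicate 2, the mitotic exit phosphatase gene cdc14b was low at 8.25 (8.45 to 8.48). These 8 values lay in 5 arrays, and 7 of them in arrays numbered 3 or 4. Some of these genes had been named for their values in these same data. That was so for cdc37 by its differences between numbers, and for rrm2b, bub1bb and cdc14b by differences between groups. The 1 in 20 is thus only a rough guide, and the place of the flagged values is not independent of that choice.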

How the results depend on the processing

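Between groups, 0 of 99 genes were called under any alternative tried, the replicate block included (0 called), and the medians kept within 1 SD of the replicates. Leaving out 1 array gave medians of -0.04 to 0.07 with MO-1, -0.07 to 0.06 with MO-2, -0.03 to 0.06 with both and -0.08 to 0.04 between morpholinos. Without the 3 arrays numbered 4, 1 probe set was called with MO-2 and 1 with both, outside the 99 genes. The numbers' calls moved more. In number 4, 12 calls became 1 to 13 on leaving out an array: 1 without MO-2 replicate 4, 2 without MO-1 replicate 4 and 6 without MO-2 replicate 2. The call of mcm7 held in 17 of 17 alternatives (-0.87 to -0.81, adjusted p from 5.35e-05 to 0.00786 by limma) and that of orc1 in 16, with 0.0502 without MO-2 replicate 4. Those of ccna2 and ndc80 held in 15, ccnd1 and orc2 in 14, top2b in 13, orc5 in 11, cdc37 in 9, mcm5 in 7, e2f8 in 6 and mcm4 in 2. In number 3, 3 calls became 0 to 3 on leaving out an array, 6 without the group term and 0 without the arrays numbered 4. There the call of cdc37 held in 9 of 17 alternatives and those of ccna2 and mad2l1 in 6. The 1 call was cdk8 without control replicate 3 and ndc80 without MO-2 replicate 3, with 0 of the 3 kept. Number 1 had 0 to 1 calls on leaving out an array, 1 with trend and robust variances and 1 without the group term, and number 2 had 0 to 1. The F-test's 9 calls became 2 to 9, and 0 without the arrays numbered 4. Both settings of number 3 and of the F-test without those arrays were chosen after seeing the data, and with fewer arrays a test has less power. Other genes of the 99 were called under an alternative alone: 10 in number 4, 4 in number 3, 3 in number 1 and 1 in number 2. In number 4 they included rrm2b, the 1 call higher there, under 5 alternatives, and without the group term 15 genes were called, with 10 of the 12 among them. For 85 single gene values named there were 1651 alternatives, and 1396 of these were for values not called, which had no call to lose. All 95 lost calls were thus among the remaining alternatives, those of called values. Of the 1396, 0 gained a call and 72 changed sign. The cause of lost calls was not tested. Few arrays limit the precision.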
